A study of Mus musculus with 11 samples.

Results

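Lrp1b, Csmd1, Csmd3, Ctnna2, Nrxn3, Cntnap2, Dlg2, Macrod2 and Ptprd are very long genes that are best known from neurons, and they were taken as a fixed list of 9 among 22225 protein-coding gene symbols of the mouse annotation. All ChIP-seq peaks with a midpoint inside the body of one of these genes were collected, which gave 8470 of the 1003029 peaks, or 0.844%, in the 10 peak lists. Together the genes spanned 16.1 Mb, or 0.628% of the mm9 genome without unknown bases. The lists came from feeder-free epiblast stem cells (EpiSCs) of the 129/Sv strain, which correspond to the epiblast of the postimplantation embryo. Every EpiSC group was transiently transfected with a pCAGGS-BLRP-BirA plasmid, so that ZIC2, OTX2, SOX2, POU5F1 or POU3F1 with a biotin tag was made in addition to the cell's own factors and was pulled down with streptavidin. The "EpiSC" groups were grown with activin (20 ng/ml) and Fgf2 (10 ng/ml), and the activin-free groups were kept without activin, with the same Fgf2, for 18 h before harvest. There was 1 library per TF and culture, so no test between libraries was possible, and culture and library cannot be told apart. The intervals below are 95% intervals that cover counting error only, and the sequencing depth behind the lists is unknown. Lists held between 62457 peaks (POU5F1, EpiSC) and 126908 peaks (POU5F1, activin-free). The only input control that was also sequenced came from the EpiSC culture with activin, and it was not analysed here.

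The proteins of these genes mostly shape contacts between neurons. Nrxn3 encodes a presynaptic adhesion receptor of the neurexin family, Cntnap2 a neurexin-like protein that gathers potassium channels along myelinated axons, Ptprd a receptor tyrosine phosphatase that organizes presynaptic sites, and Dlg2 a scaffold of the postsynaptic density. Ctnna2 encodes the neuronal alpha-catenin, which ties cadherins to actin. Lrp1b belongs to the LDL receptor family, Csmd1 and Csmd3 encode large transmembrane proteins with CUB and Sushi domains, and Macrod2 an enzyme that removes ADP-ribose from proteins. Of the TFs, POU5F1 and POU3F1 share a POU domain that reads an octamer sequence, OTX2 is a homeodomain protein that reads GGATTA, SOX2 binds DNA through an HMG box, and ZIC2 is a zinc finger protein that is often found on GC-rich DNA.

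The genes lay on 7 chromosomes and ranged from 1.10 Mb (Ctnna2, chr6:76831631-77929693) to 2.27 Mb (Ptprd, chr4:75587142-77857865). Cntnap2 (2.24 Mb, chr6:45010060-47251368) and Lrp1b (2.06 Mb, chr2:40450768-42509118) came next in length, followed by Macrod2 (1.998 Mb, chr2:140221045-142218702) and Dlg2 (1.95 Mb, chr7:97650473-99595513). Csmd1 (1.64 Mb, chr8:15892537-17535586), Nrxn3 (1.61 Mb, chr12:89961320-91573375) and Csmd3 (1.21 Mb, chr15:47412183-48623609) completed the list, which held ranks 3 to 40 in length among all protein-coding genes. Nearly all of this sequence was intronic. Exons made up 0.318% of the Cntnap2 body and at most 1.09%, in Csmd3, and the largest intron of a gene measured between 140 kb (Csmd3, intron 13) and 594 kb (Cntnap2, intron 1).

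The label "AT-rich" held for the list as a whole, with a GC content of 38.0%, against 41.8% for the genome and 40.5% for the other 191 protein-coding genes of at least 500 kb. It held unequally for the members. Csmd3 had the lowest GC content at 35.2%, followed by Lrp1b at 36.4% and Ptprd at 37.0%, and of the 2399 genes of at least 100 kb, members included, only 0.375% had a lower value than Csmd3. Csmd1 was the least AT-rich member at 40.3%, and 30.3% of those 2399 genes lay below it.

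The sequences under some of these peaks are given here because they show what the TFs were found on inside the giant introns. All are from mm9 and are read on the plus strand. The first pair stands for the extremes of TF sharing: 200 bases at the centre of a stretch of 607 bp in Lrp1b intron 47 that lay under peaks of all 10 lists (chr2:40766495-40766694, GC 42%), and 200 bases of a site in Csmd3 intron 13 that carried POU5F1 and POU3F1 peaks in both cultures and no peak of ZIC2, OTX2 or SOX2 (chr15:47930867-47931066, GC 34.5%). Neither window held the octamer or GGATTA, which says only that these letters are not in it.
Lrp1b, all 10 lists: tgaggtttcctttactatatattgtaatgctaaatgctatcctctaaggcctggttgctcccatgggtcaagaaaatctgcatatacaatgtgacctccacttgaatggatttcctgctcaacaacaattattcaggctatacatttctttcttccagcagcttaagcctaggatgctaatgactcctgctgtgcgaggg
Csmd3, POU factors only: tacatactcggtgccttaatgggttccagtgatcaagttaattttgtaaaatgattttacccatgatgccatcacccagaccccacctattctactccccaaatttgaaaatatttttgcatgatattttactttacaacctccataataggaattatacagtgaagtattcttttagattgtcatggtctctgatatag

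The next 4 windows of 80 bases were chosen because they hold a motif that is counted further below, which is in capitals. Each is from the EpiSC peak with the highest score among those of its TF in the 9 genes with that motif near the midpoint. They are an octamer under a POU5F1 peak in Dlg2 intron 3 (chr7:97881057-97881136), an octamer under a POU3F1 peak in Csmd3 intron 1 (chr15:48537003-48537082), GGATTA, read here on the opposite strand, under an OTX2 peak in Dlg2 intron 16 (chr7:99369381-99369460), and a run of alternating purines and pyrimidines under a POU5F1 peak in Ctnna2 intron 8 (chr6:77122851-77122930).
Dlg2, POU5F1: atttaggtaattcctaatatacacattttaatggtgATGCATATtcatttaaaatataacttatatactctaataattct
Csmd3, POU3F1: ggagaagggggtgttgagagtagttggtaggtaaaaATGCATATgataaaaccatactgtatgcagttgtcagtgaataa
Dlg2, OTX2: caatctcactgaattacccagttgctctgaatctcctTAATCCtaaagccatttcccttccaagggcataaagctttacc
Ctnna2, POU5F1: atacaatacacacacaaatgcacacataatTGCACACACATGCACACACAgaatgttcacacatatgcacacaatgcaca

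The ZIC2 peak with the highest score in the 9 genes stood on a tandem repeat in Ptprd intron 10 (score 3100, width 1180 bp). The score is the significance that the peak caller gave, on a log scale of its p-value on which higher is stronger. A base of this peak equalled the base 43 bp further on in 71.7% of positions, against a mean of 25.9% over all shifts from 10 to 200 bp, and a word of 20 bases occurred 17 times in it. The middle 120 bases (chr4:75776876-75776995, GC 53.3%) show the repeat, with nothing capitalized.
Ptprd, ZIC2: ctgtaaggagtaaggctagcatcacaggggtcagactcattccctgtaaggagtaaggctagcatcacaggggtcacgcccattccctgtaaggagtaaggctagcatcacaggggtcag

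The 5 TFs occupied these genes very unequally. POU3F1 peaks were the most frequent and ZIC2 peaks the rarest: in EpiSCs the 9 genes held 1881 POU3F1, 766 POU5F1, 650 SOX2, 311 OTX2 and 105 ZIC2 peaks. In activin-free cells they held 1692, 1527, 871, 565 and 102 peaks in the same order. Since the lists differ in size, each density was divided by that of the same list over the whole genome, and the quotient is called the relative density. It was 2.66 (2.54 to 2.78) for POU3F1, 1.95 (1.82 to 2.10) for POU5F1, 1.62 (1.502 to 1.75) for SOX2, 0.480 (0.428 to 0.536) for OTX2 and 0.137 (0.112 to 0.166) for ZIC2 in EpiSCs. The other 191 long genes, pooled, gave 1.77, 1.497, 1.17, 0.695 and 0.580, so the members lay further from the genome-wide value of 1 for each TF. In the activin-free lists the relative densities of the members were 2.64 for POU3F1, 1.92 for POU5F1, 1.58 for SOX2, 0.790 for OTX2 and 0.149 for ZIC2.

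**Figure D1:**
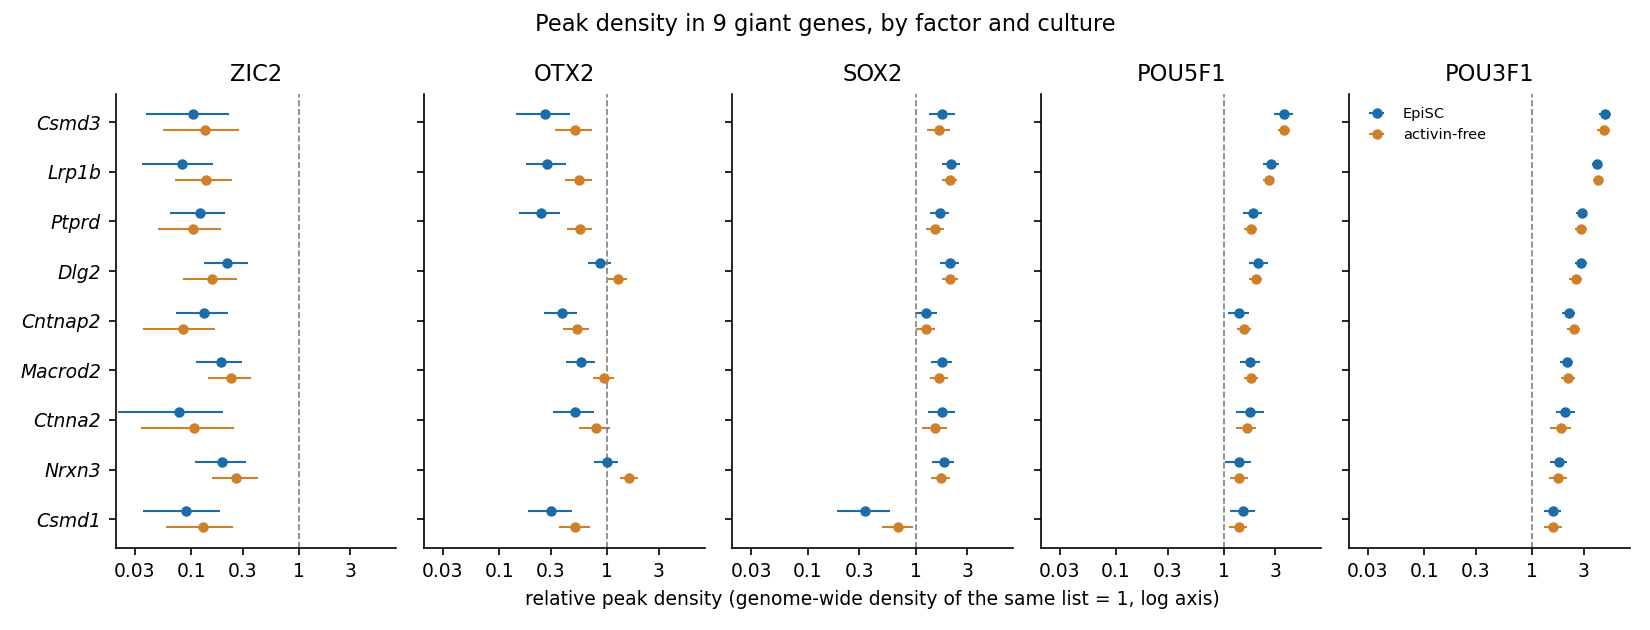
Relative peak density (log axis, 1 = genome-wide density of the same list) in the 9 genes for each TF, with EpiSC lists in blue and activin-free lists in orange, points for the observed value and bars for 95% Poisson intervals. POU3F1 lay above 1 and ZIC2 below 1 in 9 of 9 genes and both cultures, and Csmd1 stood apart in SOX2 (0.342 in EpiSCs).

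POU3F1 density differed widely between the members. Csmd3 had 254 peaks in EpiSCs, or 20.97 per 100 kb, a relative density of 4.76 (4.19 to 5.38), and Lrp1b had 364 peaks, or 17.7 per 100 kb, a relative density of 4.02 (3.61 to 4.45). Ptprd (288 peaks, 2.88), Dlg2 (243 peaks, 2.84), Cntnap2 (214 peaks, 2.17), Macrod2 (183 peaks, 2.08), Ctnna2 (98 peaks, 2.03), Nrxn3 (125 peaks, 1.76) and Csmd1 (112 peaks, 1.55, 1.27 to 1.86) followed. Neighbours in this order had overlapping intervals except at the steps from Lrp1b to Ptprd (3.61 against 3.23) and from Dlg2 to Cntnap2 (2.49 against 2.48). A relative density of at least 2 was reached by 7 of the 9 genes, all but Nrxn3 and Csmd1, while 18.8% of the 2399 genes of at least 100 kb and 36.1% of the other long genes reached it. In activin-free cells Csmd3 (222 peaks, 4.60) and Lrp1b (336 peaks, 4.10) again led. There 6 of the 9 genes reached 2, against 17.9% of the 2399 genes and 38.2% of the other long genes.

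POU5F1 followed a similar order at a lower level. Csmd3 carried 106 POU5F1 peaks in EpiSCs and 216 in activin-free cells (relative density 3.59 and 3.60), and Lrp1b carried 138 and 264 (2.75 and 2.59). In EpiSCs the remaining genes lay between 1.37, in Cntnap2 and Nrxn3, and 2.09, in Dlg2. A relative density of 2 was reached by 3 of the 9 genes in EpiSCs and 2 in activin-free cells, against 15.9% and 13.8% of all genes of at least 100 kb and 26.2% and 26.7% of the other long genes. The members held 1.99 times as many POU5F1 peaks without activin, and the whole list was 2.03 times as long.

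SOX2 was the TF in which 1 member went against the others. Lrp1b had 110 SOX2 peaks in EpiSCs and 146 in activin-free cells (relative density 2.15 and 2.07), and Dlg2 had 100 and 140 (2.07 and 2.10). Nrxn3 (73 and 95 peaks), Csmd3 (53 and 68), Ctnna2 (48 and 57), Macrod2 (87 and 113) and Ptprd (95 and 118) lay between 1.51 and 1.82, and Cntnap2 (70 and 95) at 1.25 and 1.24. Csmd1 held 14 SOX2 peaks in EpiSCs and 39 in activin-free cells, for a relative density of 0.342 (0.187 to 0.574) and 0.692 (0.492 to 0.946). Its longest stretch without a SOX2 peak in EpiSCs was 449 kb, and 7 of its 16 whole 100-kb windows were empty. Csmd3, which encodes a protein of the same family, had no empty SOX2 window among 12. A relative density of 2 was reached by 2 of the 9 genes in each culture, beside 18.4% of all genes of at least 100 kb in EpiSCs and 13.7% in activin-free cells, and 15.2% and 11.5% of the other long genes.

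OTX2 peaks were sparse in most members. Nrxn3 had 64 OTX2 peaks in EpiSCs (relative density 0.985), Dlg2 67 (0.855), Macrod2 46 (0.571) and Ctnna2 22 (0.497). Cntnap2 (34 peaks), Csmd1 (20), Lrp1b (23), Csmd3 (13) and Ptprd (22) lay between 0.240, in Ptprd, and 0.376, in Cntnap2. A value of at most 0.5 was found in 6 of the 9 genes, against 19.7% of the 2399 genes and 41.4% of the other long genes. In activin-free cells no member was at or below 0.5, against 14.3% of the 2399 genes and 20.4% of the other long genes. Csmd3 (0.501), Csmd1 (0.506), Cntnap2 (0.521), Lrp1b (0.546) and Ptprd (0.554) lay just above 0.5. These 5 of the 9 genes still had intervals below 1, while Nrxn3 (115 peaks, 1.60) and Dlg2 (108 peaks, 1.25) had intervals above 1.

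ZIC2 peaks were few in all of these genes. Ctnna2 had 4 ZIC2 peaks in EpiSCs and 5 in activin-free cells, Csmd3 had 6 and 7, Csmd1 7 and 9, and Lrp1b 8 and 12. Ptprd (13 and 10), Cntnap2 (14 and 8), Nrxn3 (15 and 18), Macrod2 (18 and 20) and Dlg2 (20 and 13) held somewhat more. The highest relative density was 0.216 in Dlg2 in EpiSCs and 0.262 in Nrxn3 without activin. All 9 genes were at or below 0.5 in both cultures, as were 41.7% (EpiSC) and 42.7% (activin-free) of the 2399 genes and 69.6% of the other long genes. The relative density of POU3F1 was at least 2 times that of ZIC2 in 9 of 9 genes in both cultures. Of the genes of at least 100 kb with at least 10 peaks of these TFs together, 42.6% in EpiSCs and 43.8% in activin-free cells reached this. Of the other long genes with as many peaks, 64.4% and 66.1% did.

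OTX2 was the TF whose peaks in these genes became more frequent in the activin-free list than the whole list did. All 9 genes gained OTX2 peaks, from a sum of 311 to 565, while the whole list grew 1.10 times. The ratio of relative densities, activin-free over EpiSC, was 1.65 (1.43 to 1.90) for the members and 1.23 (1.18 to 1.27) for the other long genes pooled. Its median was 1.02 over the 1782 genes of at least 100 kb with at least 10 OTX2 peaks, at least 5 of them in EpiSCs. Over the 172 other long genes with this minimum the median was 1.33. In the 102 other long genes within the GC range of the members, the median relative OTX2 density was 0.386 in EpiSCs and 0.690 without activin. The medians of the members were 0.376 and 0.554, so a rise was not particular to them. Ptprd had the largest ratio, 2.31 (1.39 to 3.97), followed by Lrp1b at 1.97 (1.18 to 3.38), Csmd3 at 1.88 (0.938 to 3.97) and Csmd1 at 1.68. Nrxn3 was at 1.63 (1.19 to 2.25), Macrod2 at 1.61, Ctnna2 at 1.56, Dlg2 at 1.46 (1.07 to 2.01) and Cntnap2 at 1.39 (0.882 to 2.20). The interval excluded 1 in 5 of the 9 genes. Ptprd alone reached a ratio of 2, as did 2.81% of the 1782 genes and 12.2% of the 172 other long genes. This minimum of peaks was chosen after the data were seen. With at least 1 EpiSC peak in its place, the share among genes of at least 100 kb was 8.41%. Of the members, 7 of 9 reached 1.5, which 13.9% of the 1782 genes and 36.0% of the other long genes reached.

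For the other TFs, the pooled interval included 1. The pooled ratio was 1.08 (0.818 to 1.44) for ZIC2, 0.972 (0.877 to 1.08) for SOX2, 0.981 (0.899 to 1.07) for POU5F1 and 0.995 (0.931 to 1.06) for POU3F1. Of the 36 ratios of single genes for these TFs, 1 had an interval that excluded 1, which was that of SOX2 in Csmd1 (2.02, 1.07 to 4.03). OTX2 peaks were also wider in the activin-free list, with a median of 1013 bp in the members against 752 bp in EpiSCs and of 1034 against 803 bp in the whole lists. The part of this difference between the lists in the OTX2 ratio was not tested.

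**Figure D2:**
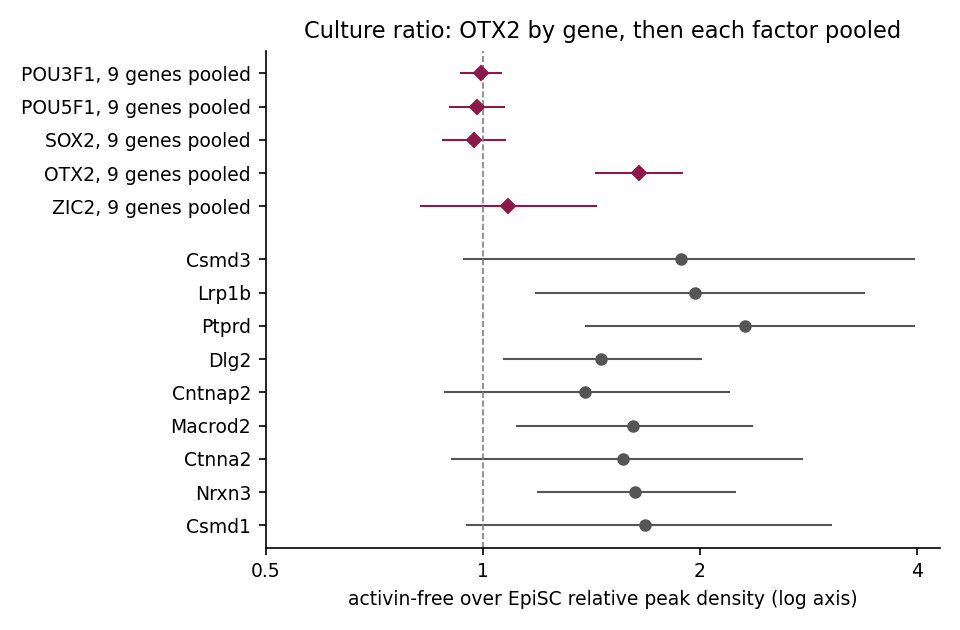
Ratio of relative peak density, activin-free over EpiSC (log axis), for OTX2 in each of the 9 genes (grey) and for each TF over the 9 genes pooled (red), with bars for exact 95% binomial intervals. The OTX2 ratio lay above 1 in 9 of 9 genes and at 1.65 pooled, while the intervals of the other pooled TFs included 1.

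At the level of single peaks, the OTX2 sites of EpiSCs were largely still present without activin. Of the 311 OTX2 peaks in EpiSCs, 277 (89.1%, 85.1 to 92.1) overlapped an activin-free OTX2 peak, while 269 of the 565 activin-free peaks (47.6%, 43.5 to 51.7) overlapped an EpiSC peak. The second share was 67.5% in the whole list and 59.3% in the other long genes. It was lowest in Ptprd (19 of 56 peaks, 33.9%) and highest in Cntnap2 (32 of 52 peaks, 61.5%). For POU3F1, 85.6% of the EpiSC peaks and 90.1% of the activin-free peaks had a partner in the other culture, for ZIC2 73.3% and 75.5%, for SOX2 80.8% and 60.4%, and for POU5F1 99.5% and 47.9%. Of 796 POU5F1 peaks found only without activin, 492 (61.8%, 58.4 to 65.1) overlapped a place that already carried a POU3F1 peak in EpiSCs, against 43.6% in the whole list. EpiSC POU3F1 peaks covered 16.6% of the 9 genes and 5.57% of the genome, and the part of this difference in the overlap was not tested.

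GC content and POU3F1 density moved together, among the members as among long genes in general. Over the 9 genes Spearman's rho was −0.983, and over all 200 genes of at least 500 kb it was −0.853, as a description of points that share 1 library and 1 base composition scale. For ZIC2 the values were 0.117 over the members, which span little of the range, and 0.851 over the 200 genes. The 102 other long genes inside the GC range of the members had a median relative density of 2.68 for POU3F1, 1.90 for POU5F1, 1.63 for SOX2, 0.386 for OTX2 and 0.166 for ZIC2. The medians of the members were 2.17, 1.76, 1.76, 0.376 and 0.1203. The 88 long genes above that range had a median of 0.550 for POU3F1 and 0.637 for ZIC2. For each TF, the median of the members lay between the lower and upper quartiles of the long genes in their GC range, which were 1.78 and 3.71 for POU3F1.

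**Figure D3:**
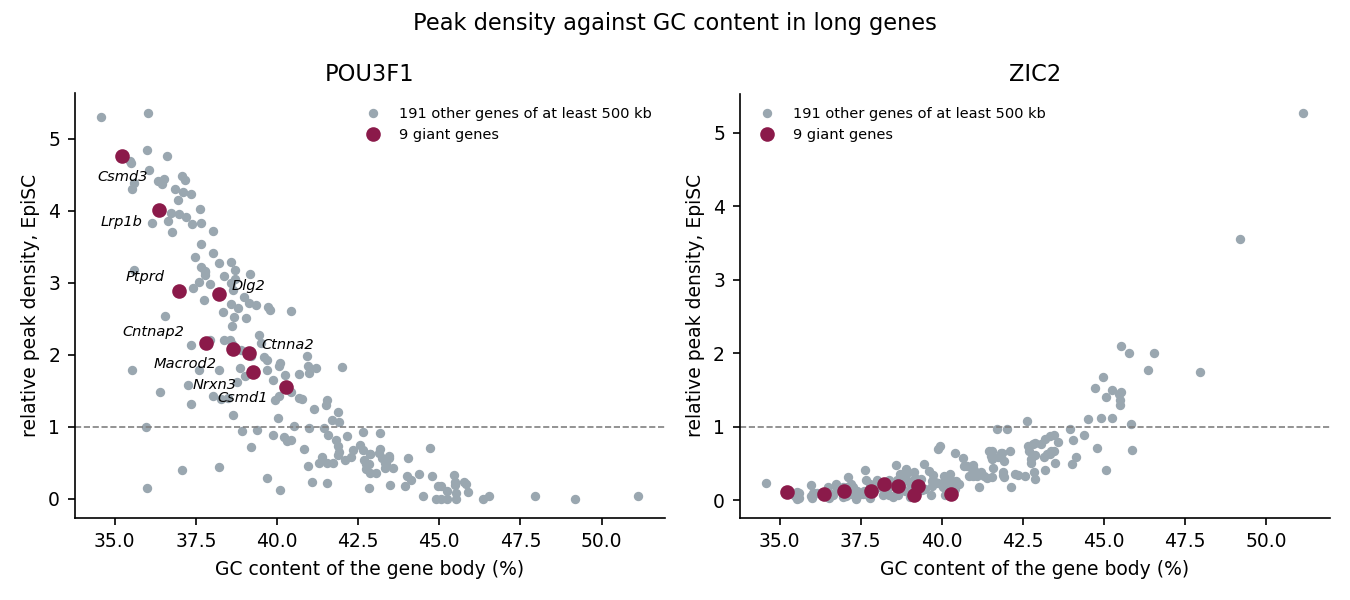
Relative peak density in EpiSCs against the GC content of the gene body (%) for POU3F1 and ZIC2, with the 9 genes in red and 191 other genes of at least 500 kb in grey. The members follow the slope of the other long genes, from Csmd3 (35.2%, 4.76) to Csmd1 (40.3%, 1.55) in POU3F1, and lie along the floor in ZIC2.

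The same relation was looked at within the genes. The gene bodies were divided into 156 whole windows of 100 kb with GC contents from 33.5% to 43.4%. The 52 windows with the lowest GC content held a mean of 15.8 POU3F1 peaks in EpiSCs, the next 52 held 13.2 and the 52 with the highest held 6.404. In the activin-free list the POU3F1 means were 14.7, 11.3 and 5.92. OTX2 had means of 0.942, 2.27 and 2.46 in EpiSCs and of 1.94, 4.52 and 3.904 without activin, where the middle class was highest. ZIC2 had 0.404, 0.692 and 0.846 in EpiSCs and 0.423, 0.731 and 0.731 without activin. SOX2 was highest in the middle class, with 3.67, 5.08 and 3.19 peaks in EpiSCs, and POU5F1 went from 5.87 to 5.27 and 3.15. Over the windows of a gene, Spearman's rho between GC content and POU3F1 peaks in EpiSCs was negative in 7 of the 9 genes, from −0.897 in Dlg2 to −0.382 in Ctnna2, and was 0.0574 in Cntnap2 and 0.251 in Ptprd. For OTX2 rho was negative in 2 of the 9 genes in EpiSCs and in 5 without activin, and for ZIC2 in 1 and 4. Windows of a gene share their neighbourhood, so these values are a description. How GC content bears on amplification, sequencing and mapping was not tested.

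Ptprd and Cntnap2, the pair without a negative relation, shared a sparse 5′ portion. The first 25% of the Ptprd body held 21 of its 288 POU3F1 peaks (7.29%) and 1 of its 95 SOX2 peaks, and the longest stretch of this gene without a SOX2 peak was 554 kb. The first 25% of Cntnap2 held 23 of 214 POU3F1 peaks (10.7%) and 2 of 70 SOX2 peaks. In Nrxn3 the first 25% held 5 of 125 POU3F1 peaks (4%) but 14 of 73 SOX2 peaks (19.2%). Over all 9 genes, successive portions of 25% of the body held 20.4%, 30.5%, 27.6% and 21.5% of the POU3F1 peaks in the direction of transcription. Csmd3 and Lrp1b showed no such gap, since no window of Csmd3 held fewer than 14 POU3F1 peaks and no window of Lrp1b fewer than 7. The fullest window was the last whole window of Csmd3 with 29 peaks. Of the 156 windows, 3 had no POU3F1 peak, 1 each in Nrxn3, Cntnap2 and Ptprd, while 85 had no ZIC2 peak.

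**Figure D4:**
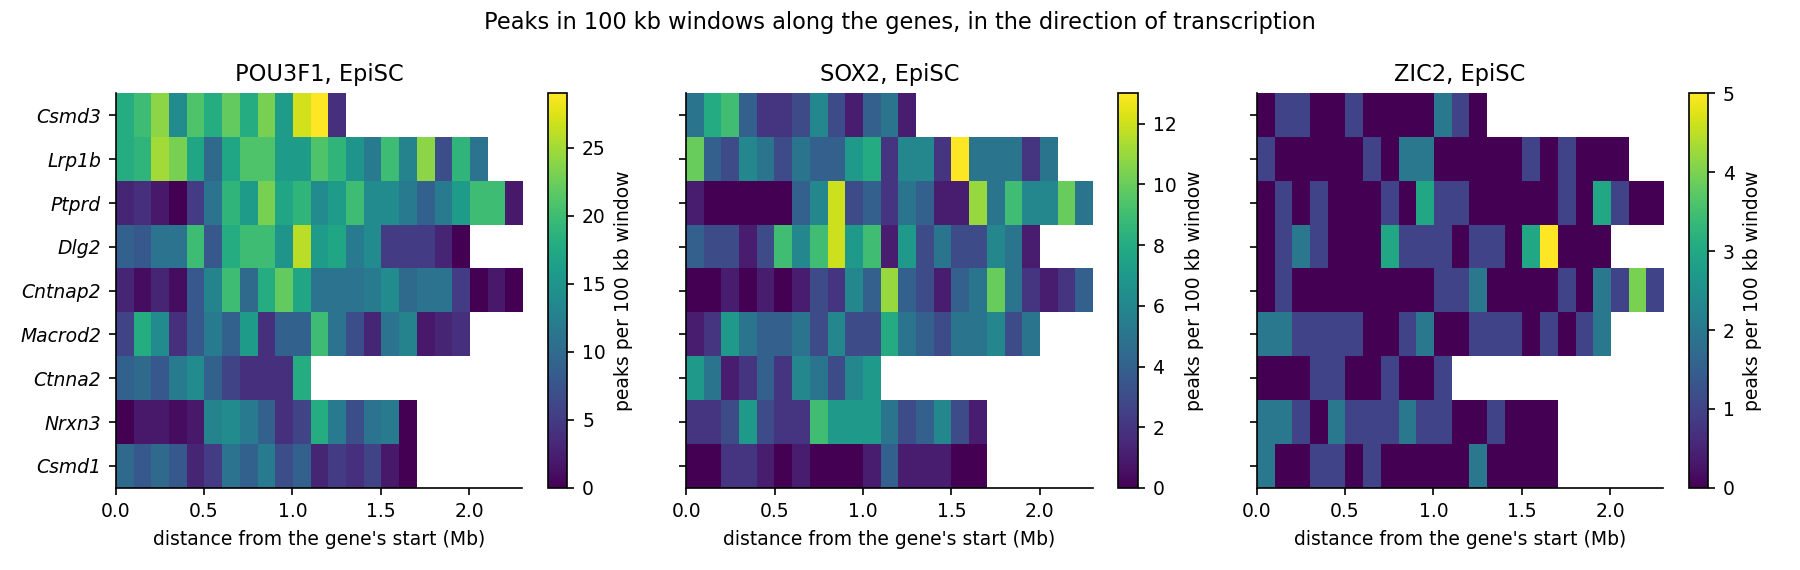
Peaks per 100-kb window from the gene's start in the direction of transcription (Mb), in EpiSCs, for POU3F1, SOX2 and ZIC2, each with its own colour scale, 1 gene per row and a last window per gene that is shorter than 100 kb. Csmd3 is filled with POU3F1 peaks throughout (14 to 29 per whole window), the 5′ portion of Ptprd is nearly free of SOX2 peaks, and ZIC2 is at 0 in 85 of 156 whole windows.

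The genes with the most POU3F1 peaks per length also had the widest ones. A short gap between peaks follows from a high density, so gaps are also given beside the mean spacing. The median gap between neighbouring POU3F1 midpoints in EpiSCs was 4.29 kb over the members, with 35.0% of gaps under 3 kb, and ran from 3.61 kb in Csmd3 to 6.83 kb in Csmd1. The other long genes had 4.48 kb. ZIC2 peaks stood 91.6 kb apart at the median, against 7.03 kb in the other long genes, and the longest stretch without one was 979 kb, in Cntnap2. The median gap was 22.1 kb for OTX2, 14.4 kb for SOX2 and 10.6 kb for POU5F1, against 14.7, 15.9 and 13.2 kb in the other long genes. Over the members the median gap was 0.427 to 0.598 times the mean spacing in the EpiSC lists. For POU3F1 this quotient was highest in Csmd3 (0.758) and Lrp1b (0.685) and lowest in Nrxn3 (0.344). It was 0.502 over the members for POU3F1, against 0.346 in the other long genes. For ZIC2 it was 0.598, against 0.193.

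The POU3F1 peaks were also broad. Their median width was 1173 bp in the members and 1034 bp in the whole list, and 18.9% (17.2 to 20.7) of them were over 2000 bp, against 13.2% of the whole list. Csmd3 (30.7%) and Lrp1b (28.6%) had the largest shares of such broad peaks and Csmd1 (5.36%) the smallest. The widest measured 8368 bp and lay in Csmd3. ZIC2 and OTX2 peaks were narrower in the members than in their whole lists (694 against 864 bp and 752 against 803 bp), while SOX2 (728 against 723 bp) and POU5F1 (1000 against 963 bp) differed little. Peaks of POU3F1 covered 37.6% of the Csmd3 body, 30.0% of Lrp1b and 16.6% of all 9 genes, against 5.57% of the genome. ZIC2 peaks covered 0.527% of the 9 genes and 5.12% of the genome.

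Most peaks lay in introns and far from transcription starts, and ZIC2 had the largest share near starts. Exons held 3 of 105 ZIC2 midpoints (2.86%) and 8 of 1881 POU3F1 midpoints (0.425%) in EpiSCs. Starts of all annotated transcripts were counted here, also those of nested genes and of non-coding transcripts. Within 5 kb of such a start lay 22 of the 105 ZIC2 peaks (20.95%, 14.3 to 29.7) in EpiSCs, although such positions make up 4.98% of the gene bodies. The shares of the other TFs were 4.77% to 7.07%. The other long genes had 21.4% for ZIC2, so the members did not stand apart. At the outermost start of Csmd1 stood ZIC2 peaks with scores of 1355 and 1033 in EpiSCs. ZIC2 peaks were also called at the outermost starts of Lrp1b, Ctnna2, Macrod2 and Ptprd in both cultures. The EpiSC peaks at Ctnna2 and Ptprd had midpoints just outside the gene body, so they are not among the 105. At Macrod2 the pair of EpiSC peaks (scores 657 and 425) corresponded to 1 activin-free peak of 1824 bp (score 1790). No ZIC2 peak lay at the outermost starts of Csmd3, Nrxn3, Cntnap2 and Dlg2, and the other starts were not looked at gene by gene. The longest first intron, that of Cntnap2 with 26.5% of the gene body, held 29 of 214 POU3F1, 1 of 14 ZIC2 and 0 of 34 OTX2 peaks (Wilson upper bound 10.2%), while that of Lrp1b, with 16.0% of the body, held 68 of 364, 1 of 8 and 5 of 23.

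A few peaks lay at small genes nested inside the giant introns, among them 2 of the 105 ZIC2 peaks in EpiSCs. Lrrtm1, a postsynaptic leucine-rich repeat protein gene in intron 8 of Ctnna2, carried 1 of the 4 ZIC2 peaks of its host in EpiSCs, with a width of 2869 bp and a score of 1057. Flrt3, which encodes a leucine-rich repeat adhesion protein and lies in intron 3 of Macrod2, had peaks of all 5 TFs within 5 kb in EpiSCs, among them 5 POU3F1 peaks with scores of up to 1061. Rbpsuh-rs3 in intron 13 of Cntnap2 had 1 POU3F1 peak in each culture and no other.

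POU5F1 peaks in these genes mostly coincided with POU3F1 peaks. In EpiSCs 596 of 766 POU5F1 peaks (77.8%, 74.7 to 80.6) overlapped a POU3F1 peak by at least 1 bp, against 63.4% in the other long genes and 51.7% in the whole list. In activin-free cells it was 1041 of 1527 (68.2%, 65.8 to 70.5), against 57.2% and 46.3%. The share followed POU3F1 density, from 101 of 106 peaks in Csmd3 (95.3%) and 123 of 138 in Lrp1b (89.1%) to 32 of 60 in Csmd1 (53.3%), and was above that of the whole list in 9 of 9 genes in both cultures. POU3F1 peaks covered 37.6% of Csmd3 and 7.26% of Csmd1, and the part of this coverage in the overlap was not tested. Seen from POU3F1, 578 of 1881 peaks (30.7%, 28.7 to 32.9) overlapped a POU5F1 peak in EpiSCs, against 28.0% in the whole list. POU3F1 peaks with a POU5F1 peak had a median score of 588 and a width of 1679 bp, and those without had 182 and 1025 bp, in a contrast that the 1-bp overlap partly fixes, since a wider peak meets another more easily.

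**Figure D5:**
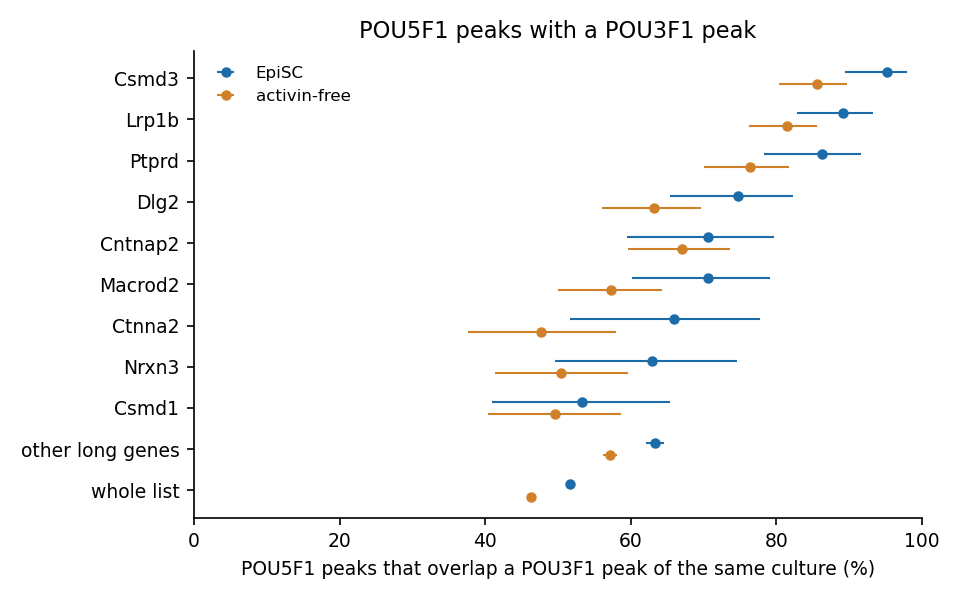
Percent of POU5F1 peaks that overlap a POU3F1 peak of the same culture, by gene, for the other long genes and for the whole list, with EpiSC in blue, activin-free in orange and bars for 95% Wilson intervals. Csmd3 (95.3% in EpiSCs) and Csmd1 (53.3%) mark the ends, and the value of the whole list is 51.7%.

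Overlap of POU3F1 with the remaining TFs has to be read beside its coverage, since EpiSC POU3F1 peaks covered 16.6% of the 9 genes and 5.57% of the genome. In EpiSCs a POU3F1 peak was found at 33.4% of SOX2 peaks (25.1% in the other long genes, 17.7% in the whole list), at 83 of 311 OTX2 peaks (26.7%, against 14.5% and 7.06%) and at 14 of 105 ZIC2 peaks (13.3%, 8.11 to 21.1, against 2.71% and 1.16%). The interval of the ZIC2 share included the coverage of 16.6%, and an overlap needed only 1 bp. The part of coverage in the differences between these sets was not tested. ZIC2 peaks met an OTX2 peak at 15.2%, which was close to the 14.8% of the whole list. In all, the peaks of the 10 lists merged into 3200 sites, of which 1896 carried 1 TF, 976 a pair, 276 carried 3, 50 carried 4 and 2 carried all 5. Both POU TFs in both cultures marked 526 sites, and 346 of these had no peak of ZIC2, OTX2 or SOX2. Only 23 sites joined ZIC2 and POU3F1. The 2 sites with all 5 TFs carried peaks of all 10 lists. In Lrp1b intron 47 (chr2:40765498-40769514) the 10 lists overlapped over 607 bp, with scores from 182 to 685 for the peaks over that stretch, and 200 bases of it are printed above. In Ptprd intron 1 (chr4:76090800-76096635) the peaks lay side by side, and no base was under more than 7 lists. The Csmd3 intron 13 site printed above was of the POU-only kind and had a POU3F1 peak of 7993 bp with a score of 3100 in EpiSCs.

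Known recognition letters were found under the peaks at rates that depended on the TF. The octamer was searched as ATGCAAAT or ATGCATAT and the OTX2 motif as GGATTA, on both strands, within 100 bp of each midpoint. Windows of the same length 1000 bp to either side served as flanks. In EpiSCs an octamer was found at 126 of 766 POU5F1 peaks of the members (16.4%, 14.0 to 19.2), against 4.37% of flanks and 18.6% of the whole list, and at 155 of 1881 POU3F1 peaks (8.24%, 7.08 to 9.57), against 4.09% of flanks and 8.84% of the whole list. SOX2 (3.85%) and ZIC2 (3.81%) windows held it about as often as their flanks (4.08% and 5.24%). GGATTA was found at 82 of 311 OTX2 peaks (26.4%, 21.8 to 31.5), against 4.98% of flanks and 23.6% of the whole list. Alternations of purine and pyrimidine over at least 20 bases, as in the Ctnna2 window above, stood under 127 of 766 POU5F1 peaks (16.6%), against 4.70% of flanks and 29.6% of the whole list. ATGCATAT is itself an alternation, so these searches can share bases.

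POU5F1 peaks with and without a POU3F1 peak differed in their letters. Of the 170 POU5F1 peaks in EpiSCs without a POU3F1 peak, 63 (37.1%, 30.2 to 44.5) held an alternation and 45 (26.5%, 20.4 to 33.6) an octamer. Of the 596 with one, 64 (10.7%, 8.499 to 13.5) held an alternation and 81 (13.6%, 11.1 to 16.6) an octamer. Their median widths were 891 bp without and 1076 bp with a POU3F1 peak. In activin-free cells the alternation was found in 21.6% without and 8.07% with a POU3F1 peak, while the intervals of the octamer shares (14.4% and 11.9%) overlapped. The windows under POU3F1 peaks had a mean GC content of 33.0%, below the 36.9% of their flanks, and those under ZIC2 peaks had 54.7%, above the 38.9% of theirs, so the few ZIC2 peaks of these genes stood on GC-rich islands in AT-rich surroundings.

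Relatives and binding partners of the members were looked up from a list of 20 family members and 20 synaptic partner genes. Of the 14 family members of at least 100 kb, 4 had a relative POU3F1 density of at least 2 in EpiSCs and 10 a relative ZIC2 density of at most 0.5. Of the 8 partners of that length, the counts were 4 and 7, and of all genes of at least 100 kb the shares were 18.8% and 41.7%. Nrxn2 (125 kb, GC 53.7%), a neurexin gene like Nrxn3, had 0 POU3F1 and 45 ZIC2 peaks, beside 125 and 15 in Nrxn3. Macrod1 (141 kb, GC 54.0%), the relative of Macrod2, likewise had 0 POU3F1 and 51 ZIC2 peaks. Csmd2 (580 kb, GC 48.0%), the third gene of the Csmd family, had 1 POU3F1 and 48 ZIC2 peaks. Among the partners, Il1rapl1, which binds Ptprd (1375 kb, GC 35.5%), had 282 POU3F1 and 6 ZIC2 peaks, and Nlgn1, a postsynaptic partner of neurexins (702 kb, GC 37.4%), had 118 and 4. Ctnna3 (1574 kb, GC 39.4%) resembled Ctnna2 (GC 39.1%) in length and GC content but had 66 POU3F1 peaks, a relative density of 0.952 against 2.03, and 12 SOX2 peaks, a relative density of 0.306 against 1.76.

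The long genes whose 10 densities were most like the median of the members were Bai3, Grm8, Arhgap15, March1 and Fgf13. Likeness was the distance over 10 log2 densities, which was 0.975 for Bai3 and 1.21 for Fgf13, against a median of 3.64 for the other long genes. Bai3 had a relative density of 3.01 for POU3F1 and 0.0827 for ZIC2 in EpiSCs. These 5 genes were picked as the nearest of the 191, so they are near by construction. Of the 9 members, 3 lay as near to their own median, namely Ptprd (0.894), Ctnna2 (0.984) and Cntnap2 (1.02). Csmd1 (2.82) and Nrxn3 (2.47) lay farthest from it, and all 9 members were nearer than the median of 3.64.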

How the data were processed

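Bowtie2 alignment by the authors used mm9 (the aligner's version is not given in the sources used here), and MACS1.4 was run with the input as reference. The deposited lists, 1 per library, give peak coordinates and a score of at least 50, which is 10 times the negative log10 of the peak caller's p-value. Reads were not analysed here, so depth is unknown. Peaks on unplaced sequence, 65 to 247 per list, were not used. Peaks were assigned by midpoint to gene bodies of GENCODE vM1 on mm9. Relative density was the count divided by that of the same list per known base of the genome, with exact Poisson intervals. Culture ratios had exact binomial and shares Wilson intervals. Peaks within 150 bp were merged into sites. Python 3.11.15, numpy 2.4.6 and scipy 1.17.1 were used, and the functions were tested on simulated data. Named genes were the 9 members, their families and partners, genes nested in them and the 5 long genes most alike. The members and lists were chosen with earlier results of these data known.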

Additional observations from a re-analysis of the deposited data

How the results depend on the processing

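Densities and culture ratios were recomputed with peaks of a score of at least 100 and with the 50000 highest-scoring peaks per list. They were also recomputed with summed peak width in place of counts, and with other gene bodies, merging and reference chromosomes. Other results had fewer alternatives, such as other folds for counts of genes, stricter overlaps, and whole peaks for the octamer. The GC relations, 100-kb windows, shares near starts, merged sites, coverage and the other motifs were not recomputed. Pooled densities of the members stayed on the same side of 1 in 70 of 70 values and densities of single genes in 627 of 630. Of all 968 values, 786 stayed within the limits set around the main value and 182 moved beyond them. The 786 include the shares of peaks in the first 50% of the gene body, 1 per list, which could not move by construction. Among the 94 values for main results, 23 moved. The OTX2 density in EpiSCs became 0.393 (score), 0.391 (highest-scoring) and 0.423 (width), that of POU3F1 2.85, 3.16 and 2.99, and that of ZIC2 0.0796 (highest-scoring) and 0.103 (width). The OTX2 culture ratio stayed above 1 in 7 of 7 values and rose to 1.98 (score), and that of POU3F1 became 0.924 (highest-scoring). Counts of genes past a fold followed the fold by construction: at 1.5 and 3, they were 7 and 0 for SOX2, 6 and 1 for POU5F1, 7 and 0 for the OTX2 culture ratio, and 2 for POU3F1 at 3. The share of POU5F1 peaks with a POU3F1 peak in EpiSCs was 66.5% (highest-scoring) and 48.0% where at least 50% of both peaks had to overlap, and the OTX2 overlap of cultures then fell to 76.5% (EpiSC) and 42.1% (activin-free). Whole peaks held an octamer in 40.9% (POU5F1) and 33.9% (POU3F1), since they are longer than the window. With at least 1 EpiSC peak in place of the minimum of 10 OTX2 peaks, a filter chosen after seeing the data, 8.41% of genes reached a culture ratio of 2. No paired analysis was possible because each group had 1 library. The lists hold no reads, so weak peaks below the score of 50 and differences in depth could not be examined.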

Other observations

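Some long genes as AT-rich as the members were almost free of peaks, and they were named after their values were seen. Of the 102 other genes of at least 500 kb in the GC range of the members, 11 had a relative POU3F1 density below 1 in EpiSCs and 20 lay below Csmd1, the lowest member. Fstl5 (chr3:75878192-76513941, GC 36.0%), which encodes a secreted follistatin-like protein, had 4 POU3F1, 1 POU5F1 and 1 ZIC2 peak and no OTX2 or SOX2 peak in EpiSCs. Unc5d (chr8:29757189-30329810, GC 40.1%), a netrin receptor gene on the same chromosome as Csmd1, had 3 POU3F1, 5 POU5F1, 3 SOX2, 1 OTX2 and 2 ZIC2 peaks. Their relative POU3F1 densities were 0.143 and 0.119, against 4.02 in Lrp1b, whose GC content of 36.4% is close to that of Fstl5, and 1.55 in Csmd1, whose GC content of 40.3% is close to that of Unc5d.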
